A study of Mus musculus with 8 samples.

Results

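Luminal mammary cells of mice that express ΔNp63 were compared with luminal cells of CD1 mice over all genes. The comparison was between 4 of the 8 RNA-seq libraries of the series, chosen by their labels: 2 of DNp63 luminal cells and 2 of CD1 luminal cells. The other 4 entered the same fit and shared its filter and its estimate of the spread. It held all 49671 genes of the deposited table, of which 16900 passed a filter on low values and were tested. Every mouse was female, and genetic backgrounds were mixed. The DNp63 mice carried K8rtTA, TetOCre and Rosa26-DNp63-IRES-GFP, and their luminal cells were sorted as GFP-positive, CD24-positive cells with low CD29. The CD1 mice carried none of these alleles in the labels, and their luminal cells were sorted by CD24 and low CD29 alone. Both sorts left out cells with CD45, CD31 or CD140a, and 40000 cells were collected per luminal library. The basal libraries held 5000 cells with high CD29 each, 2 from each kind of mouse, and their own values are given below beside the luminal results.

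In the transgenic mice the keratin 8 promoter drives rtTA, doxycycline then turns on Cre, and Cre releases ΔNp63 with GFP in cells that have expressed keratin 8 and in their descendants. How long these mice received doxycycline, and how old they were, is not given in the sources. Strain, doxycycline, the GFP gate and the transgene all differed together between the groups, and their contributions cannot be told apart. Whether the 2 libraries of each group are from different animals is not in the labels, so p-values measure only the spread between these libraries, which for the CD1 pairs may be technical. In bulk samples fewer cells of a type and less RNA per cell cannot be told apart.

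The mammary epithelium is a bilayer of inner luminal cells, which include hormone-sensing and milk-producing cells, and outer basal cells, which contract. ΔNp63 is a transcription factor normally made by the basal layer of stratified and glandular epithelia, where it maintains basal identity. Milk protein genes are transcribed in luminal cells under prolactin signalling through STAT5. FOXJ1 and the RFX factors turn on the genes of motile cilia in multiciliated cells of the airway, oviduct and brain ventricles.

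Library depth ranged from 5111680 to 7206729 reads assigned to genes in the 4 luminal libraries, as recovered from the deposited values. Values are given as reads per 20000000, and 1 read was worth 2.775 to 3.913 of them. The correlation of log2 values was 0.965 between the CD1 luminal libraries, 0.98 between the DNp63 luminal libraries and 0.943 to 0.959 across the 2 groups. In 2 respects single libraries stood apart. Xist, the RNA that coats the inactive X chromosome, stood at 93423 and 97009 in CD1 luminal and at 111346 in DNp63 luminal replicate 1, but at 36 in replicate 2. It was likewise 60686 and 141 in the DNp63 basal libraries, while the Y-linked Ddx3y was at 0 in all 8 libraries. CD1 luminal replicate 2 held more fibroblast transcripts: the 16 fibroblast markers summed to 57103 there and to 20243 in CD1 luminal replicate 1, with 35565 and 33057 in DNp63 luminal. Some results that rest on these libraries are also given with 1 of them left out, but not all are.

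Luminal markers were at high values in all 4 libraries. Krt8, which encodes a simple keratin of luminal cells, stood at 42397 and 45769 in CD1 and at 44514 and 43947 in DNp63, a log2 difference of -0.05 ± 0.13 (SE, limma adjusted p = 0.891). Epcam, an epithelial adhesion gene, ranged from 22904 to 28646 over the 4 libraries. Markers of other cell types differed in how far they were below the basal gate. The 16 endothelial markers summed to 1529 to 2423 in the luminal libraries against 46012 to 67285 in the basal ones. The 14 immune markers summed to 653 to 754 against 1051 to 1552, with Ptprc, which encodes CD45, at 47 to 75. Fibroblast markers overlapped between the gates (27388 to 115884 in the basal libraries), as did the red cell markers (137 to 250 against 152 to 258). No endothelial marker of 16 tested, immune marker of 8, pericyte marker of 11 or adipocyte marker of 12 was called by limma in the luminal comparison or with voom. At an unadjusted p below 0.05 there were 6 endothelial, 1 immune, 5 pericyte and 2 adipocyte markers. The endothelial 6 were all lower in DNp63, and their part in other results was not tested.

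A gene is called higher or lower here when limma's moderated test gave a Benjamini-Hochberg adjusted p below 0.05 over the 16900 genes tested. Differences are log2 differences, DNp63 minus CD1, of scaled values after adding 8 (about 2 reads), which understates the change of low genes. In all 739 genes were called, 4.37% of those tested. Of these 443 rose (2.62%) and 296 fell (1.75%), and 530 differed at least 2-fold. The 2 DNp63 libraries did not overlap the 2 CD1 libraries in any of the 739. A call with 2 libraries a group largely entails this, so it is no further support. The median difference over all genes tested was 0.01. Of the genes that rose, 73 passed the filter only through the DNp63 luminal libraries, and 15 of those that fell passed only through the CD1 luminal libraries. Without DNp63 luminal replicate 1 the count was 255, and without replicate 2 it was 141, and without CD1 luminal replicate 1 the genes that fell numbered 510, in fits where the lone library was assumed to vary like the other groups. In all, 104 genes were called in the fit reported here and under each of 19 alternative analyses, and they are called robust below. With the 4 luminal libraries fitted alone 314 genes were called, and without any 1 basal library 532 to 599.

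**Figure D1:**
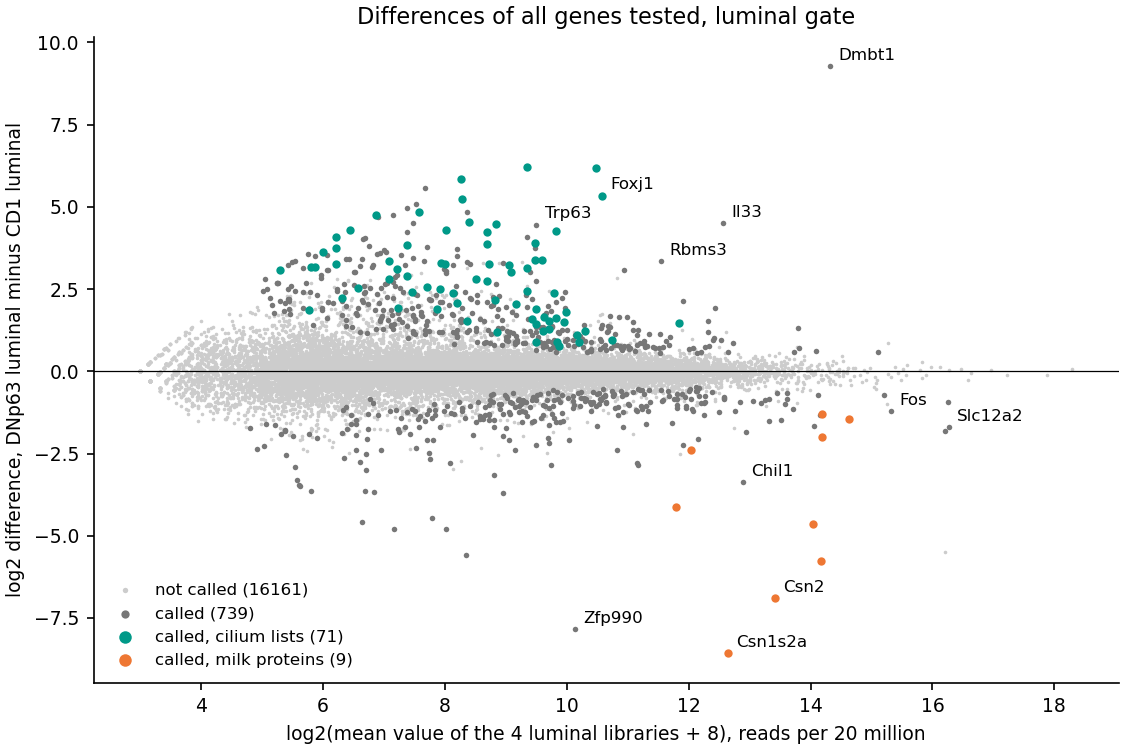
Log2 difference of each of the 16900 genes tested (vertical axis) against its mean value in the 4 luminal libraries (horizontal axis, log2 of reads per 20000000 plus 8). The 71 called genes of the cilium lists (green) all lie above 0 and the 9 called milk protein genes (orange) all lie below it, with Dmbt1 highest at 9.28 and Csn1s2a lowest at -8.58.

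Values assigned to Trp63, the gene that encodes p63 (chromosome 16, 25683763 to 25892102, plus strand of GRCm38), were higher in DNp63 luminal cells. The CD1 luminal values were 61 and 45 and the DNp63 luminal values 1297 and 1460, a difference of 4.46 ± 0.18 (SE, limma adjusted p = 2.04e-05). The call was robust. Reads of the transgene and of the resident gene are not separated in the values. The DNp63 luminal level was below the 5457 and 7079 of CD1 basal cells.

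Of 24 genes linked to p63 in stratified epithelia, 5 rose and none fell, beside 2.62% higher among all genes, with a median of 0.29. Of the 24, 23 passed the filter without the DNp63 luminal libraries, and 4 of those rose. Pkp1 encodes plakophilin 1, a protein of desmosomes. It stood at 759 and 782 in CD1 and at 2601 and 2540 in DNp63, a difference of 1.67 ± 0.13 (limma adjusted p = 0.000493). Trim29, a basal-cell TRIM protein, went from 419 and 378 to 1790 and 1409 (1.92 ± 0.16, limma adjusted p = 0.000715). The DNp63 libraries were more than 3-fold above the CD1 libraries for both genes. Cdh3, which encodes P-cadherin of basal cells, went from 82 and 56 to 408 and 294 (2.17 ± 0.22, limma adjusted p = 0.00179). Pkp1, Trim29 and Cdh3 were robust. Perp, a desmosomal membrane protein, rose by 1.14 and Grhl3, a Grainyhead factor of surface epithelia, by 2.88, but Perp lost its call without DNp63 luminal replicate 1 (limma adjusted p = 0.0512) and Grhl3 without either DNp63 luminal library (0.0718 and 0.162) or CD1 luminal replicate 2 (0.0638). The count of 5 was 3 without DNp63 luminal replicate 1.

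The main keratins of basal cells, Krt5 and Krt14, and the muscle gene Acta2 did not pass the test. Krt5, a keratin of basal epithelium, stood at 110 and 97 in CD1 luminal and at 167 and 157 in DNp63 luminal (0.56 ± 0.18, limma adjusted p = 0.149), against 10901 and 7502 in CD1 basal. Its partner Krt14 stood at 401 and 230 against 433 and 435 (0.45 ± 0.22, limma adjusted p = 0.356). Acta2, smooth muscle actin, differed by 0.19 ± 0.18 (limma adjusted p = 0.669). Of 16 tested basal keratins and regulators, only Trp63 itself rose. Of 19 contractile genes Cald1, an actin-binding regulator of contraction, rose by 0.58 while Pgm5, a protein of muscle attachment sites, fell by 2.80. Shares called were 6.25% and 10.5% in these lists, beside 4.37% of all genes. Krt23, a keratin outside the basal list, rose from 15 and 8 to 161 and 149 (3.03 ± 0.35, limma adjusted p = 0.00279). It stood at 275 and 428 in CD1 basal and was not among the robust genes. The CD1 basal minus CD1 luminal difference shares the CD1 luminal libraries with these values. It was 6.34 for Krt5, 5.88 for Cdh3, 4.19 for Krt23, 2.91 for Trim29 and 2.06 for Pkp1.

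Genes of cilia, mostly of the motile kind, rose together. The 7 cilium lists held 160 genes, of which 127 were tested, 71 rose and none fell, with a median difference of 1.48 against 0.01 for all genes. Beside the 71 of 127, 2.62% of all genes tested rose. The 71 make up 16% of all genes that rose. List members that were not tested had low values in DNp63 as well, as 5 named after their values were seen show. Dnah5 and Spag16 were at 0 in all 4 luminal libraries, and Hydin was at 0, 0, 12 and 0, CD1 first. Spaca9 (0, 4, 39 and 55) and Ribc2 (4, 0, 31 and 44) were higher in DNp63. Because 19 of the tested members passed the filter only through the DNp63 luminal libraries, the count was repeated on the 108 that passed without them, and 53 of those rose. Without DNp63 luminal replicate 1 the 71 became 41 and without replicate 2 they became 21. The lists were chosen with earlier results of these data known, so these counts are a description.

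Foxj1, the forkhead master regulator of motile cilia, rose by 5.34 ± 0.25 (limma adjusted p = 5.95e-05). It stood at 79 and 49 in CD1 luminal and at 2637 and 3314 in DNp63 luminal, and both DNp63 libraries were far above both CD1 libraries. In the basal gate its values were 692 and 504 in CD1 and 317 and 266 in DNp63. Of the 12 tested regulators of multiciliogenesis, Rfx2 and Rfx3 also rose. Rfx3, whose protein binds X-box promoters of cilium genes, went from 1022 and 1227 to 2013 and 2524 (0.95 ± 0.16, limma adjusted p = 0.0154). Rfx2, of the same family, rose by 1.23. Without DNp63 luminal replicate 2 the limma adjusted p was 0.163 for Rfx3 and 0.257 for Rfx2, and Rfx2 also lost its call without DNp63 luminal replicate 1 (0.0883), CD1 luminal replicate 1 (0.0545) or CD1 luminal replicate 2 (0.103). The geminin-family regulators that start multiciliated differentiation were at or near 0: Mcidas was at 0 in all 4 luminal libraries and Gmnc at 0 in 3 of them and at 3 in DNp63 replicate 1. Ccno, which acts beside them in centriole amplification, stood at 22 and 26 in CD1 and at 20 and 8 in DNp63. Trp73, the p53-family gene upstream of Foxj1 in multiciliated cells, did not exceed 12 in any luminal library.

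**Figure D2:**
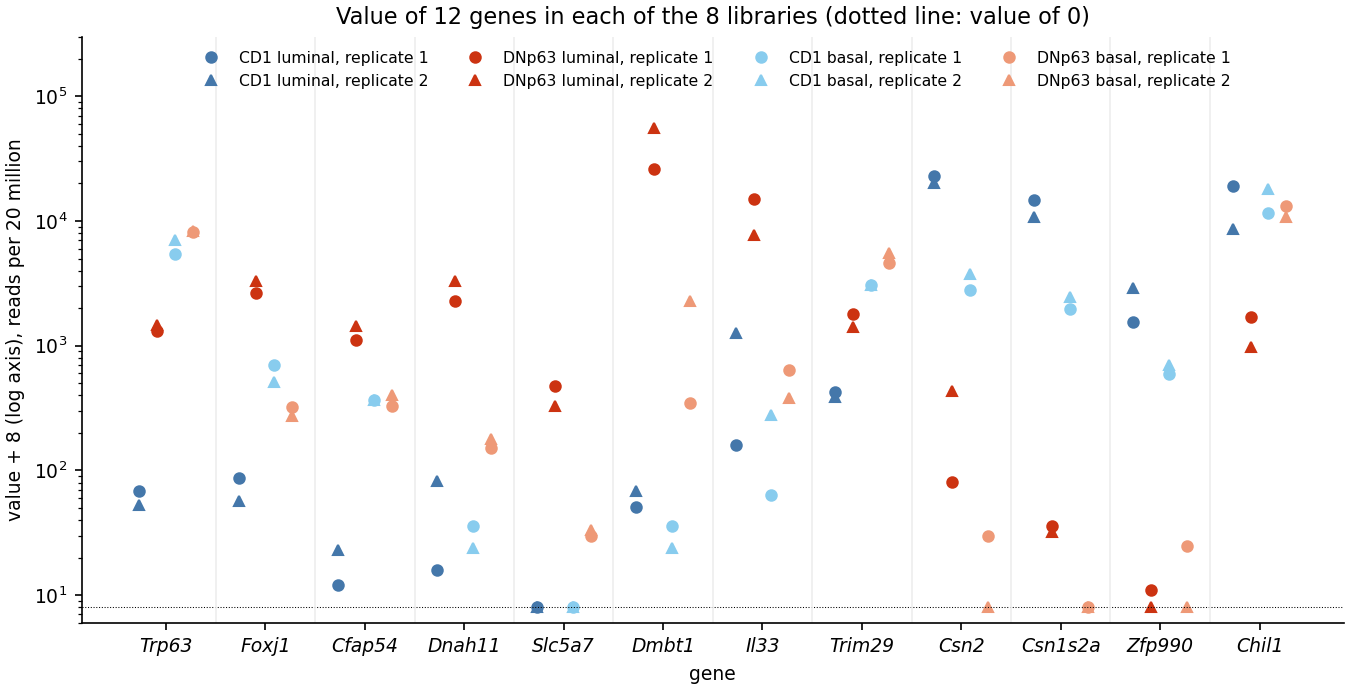
Value of 12 genes in each library (reads per 20000000 plus 8, log axis, circles for replicate 1 and triangles for replicate 2). Foxj1, Cfap54, Dnah11 and Slc5a7 are higher in both DNp63 luminal libraries (red) than in the other 6 libraries, whereas Csn2, Csn1s2a and Zfp990 are low in the DNp63 libraries of both gates.

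The central apparatus, radial spokes and nexin links regulate the bending of the axoneme. Of 23 tested genes of these structures 16 rose, with a median of 2.76, and of the 19 that passed the filter without the DNp63 luminal libraries 12 rose. Cfap54, a central-apparatus protein, was at 4 and 15 in CD1 and at 1111 and 1429 in DNp63 (6.20 ± 0.32, limma adjusted p = 9.66e-05). Drc1, the scaffold of the nexin-dynein regulatory complex, was at 0 and 4 in CD1 and at 431 and 763 in DNp63. That is 1 read against 350 over the group, a ratio of 313.7 (95% exact interval 55.9 to 12424, counting error only). Drc7, of the same complex, went from 11 and 4 to 456 and 748 (5.24 ± 0.40, limma adjusted p = 0.000493). These 3 genes were close to undetected in CD1 luminal cells. Rsph4a, a radial spoke head protein, rose by 4.29, Nme5, a spoke-associated kinase-like protein, by 4.24 and Cfap69, of the central apparatus, by 4.26. Without DNp63 luminal replicate 2 the 16 became 8. Cfap54, Drc1, Drc7, Nme5 and Cfap69 were robust.

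Axonemal dyneins are the motors of ciliary beating. Of 20 tested heavy, intermediate and light chains 9 rose, with a median of 0.46, and of the 19 that passed without the DNp63 luminal libraries 8 rose. Dnah11, an outer-arm heavy chain, was at 8 and 75 in CD1 and at 2265 and 3322 in DNp63 (6.18 ± 0.65, limma adjusted p = 0.00208). Dnah2, an inner-arm heavy chain, went from 36 and 41 to 411 and 501 (3.26 ± 0.27, limma adjusted p = 0.00075). The chains differed among themselves, as 2 that were chosen after their values were seen show. Dnaic1, an outer-arm intermediate chain, stood at 554 and 464 in CD1 and at 650 and 435 in DNp63, a difference of 0.01. Dnaic2, the partner of Dnaic1, stood at 4 and 12 against 9 and 20. The 9 became 5 without DNp63 luminal replicate 1 and 4 without replicate 2.

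Of 11 tested genes for dynein assembly and docking 7 rose, but 4 of the 11 passed the filter only through DNp63 luminal, and of the other 7 only 3 rose. Among those that rose was Armc4 (8 and 19 against 284 and 325), a docking-complex protein. Lrrc6, a dynein assembly factor, had 0 reads in CD1 and 62 in DNp63, at least 18.5-fold higher against a floor of 3 reads over the group. Of 17 tested proteins of the microtubule lumen and other axoneme parts 11 rose, and of the 13 that passed without DNp63 luminal 7 rose. Mns1, which lies inside the doublet microtubules, went from 18 and 19 to 525 and 748 (4.53 ± 0.33, limma adjusted p = 0.000471) and was robust. Of 9 tested transcripts that are abundant in multiciliated cells 6 rose, and 6 of the 9 passed the filter only through DNp63 luminal. Pifo had 0 reads in CD1 and 132 in DNp63, at least 39.4-fold higher. Tppp3, a tubulin-binding protein and the highest member of that list, did not pass (752 and 423 against 1205 and 994, limma adjusted p = 0.117), and Tmem212 and Sec14l3 did not exceed 11 in any luminal library. The assembly and docking count became 2 and 0, the microtubule count 6 and 3 and the abundant-transcript count 0 and 0, without DNp63 luminal replicate 1 and without replicate 2.

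Intraflagellar transport carries cargo along primary and motile cilia alike, and the BBSome is its membrane-cargo adaptor. All 35 genes of this list were tested without help from the DNp63 luminal libraries. Of these 19 rose, beside 2.62% higher among all genes, none fell, and the median was 0.96. Ift57, a subunit of the anterograde train, went from 210 and 163 to 891 and 1307 (2.44 ± 0.24, limma adjusted p = 0.00146). Ttc26 (IFT56), of the same train, went from 139 and 101 to 983 and 1343 (3.13 ± 0.25, limma adjusted p = 0.000622). Kif3a, a motor subunit of kinesin-2, went from 483 and 515 to 1344 and 1616 (1.49 ± 0.15, limma adjusted p = 0.00183). All 3 were detected in both CD1 luminal libraries. BBSome gene Bbs5 rose by 1.90 and Arl6, which recruits the BBSome to membranes, by 2.07. The count of 19 became 5 without DNp63 luminal replicate 2 and 9 in a fit of the 4 luminal libraries alone, while Ift57, Ttc26, Kif3a and Ift74 were robust. Hedgehog genes, whose signalling runs through primary cilia, did not rise. Of 14 tested, Boc, a co-receptor, fell by 1.15 and 13 were not called, beside 1.75% lower among all genes.

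Promoter sequences were examined because RFX proteins bind X-box elements near the start sites of cilium genes. The motif GTTGCC, an RFX half-site, was searched on both strands in the 250 bases before the start site of RefSeq genes (GRCm38.p6). It lay in 32.8% of 61 windows of cilium genes that rose, in 30.7% of 114 windows of all tested cilium genes, and in 10.6% of windows of all genes tested. Among the other genes that rose the share was 15.8%, and among genes that fell it was 6.67%. The forkhead motif TGTTTAC lay in 1.64% of the windows of cilium genes that rose, in 4.6% of those of the other genes that rose and in 2.06% of those of all genes tested. Of the 739 called genes 500 had a window. A match is a run of letters and not a measured binding site. The windows of 5 cilium genes that rose and hold a match are shown, with the matches in capitals, on either strand. These 5 are examples and not a ranking, and cilium genes with larger differences may also hold a match.
Drc1, chr5:30281143-30281392, plus strand: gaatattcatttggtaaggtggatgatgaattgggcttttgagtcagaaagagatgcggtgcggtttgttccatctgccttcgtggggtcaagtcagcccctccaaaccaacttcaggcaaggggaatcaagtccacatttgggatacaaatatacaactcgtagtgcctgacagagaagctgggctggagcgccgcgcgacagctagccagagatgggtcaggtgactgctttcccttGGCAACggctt
Mns1, chr9:72438279-72438528, plus strand: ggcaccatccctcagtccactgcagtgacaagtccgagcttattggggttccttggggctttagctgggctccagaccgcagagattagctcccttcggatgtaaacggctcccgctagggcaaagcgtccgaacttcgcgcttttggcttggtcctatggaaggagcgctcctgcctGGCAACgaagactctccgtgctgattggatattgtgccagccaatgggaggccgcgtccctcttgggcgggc
Lrriq1, chr10:103236323-103236572, minus strand: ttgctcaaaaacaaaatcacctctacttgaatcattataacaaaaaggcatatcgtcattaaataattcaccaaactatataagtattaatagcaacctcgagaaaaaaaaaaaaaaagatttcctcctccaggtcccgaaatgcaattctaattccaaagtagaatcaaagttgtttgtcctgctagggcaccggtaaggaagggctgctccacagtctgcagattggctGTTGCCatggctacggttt
Dynlrb2, chr8:116504765-116505014, plus strand: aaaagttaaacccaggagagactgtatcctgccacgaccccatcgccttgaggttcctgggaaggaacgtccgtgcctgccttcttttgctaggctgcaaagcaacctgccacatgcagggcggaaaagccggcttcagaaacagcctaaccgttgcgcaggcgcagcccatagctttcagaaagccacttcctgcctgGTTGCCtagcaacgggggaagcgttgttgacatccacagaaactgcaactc
Cfap44, chr16:44394549-44394798, plus strand: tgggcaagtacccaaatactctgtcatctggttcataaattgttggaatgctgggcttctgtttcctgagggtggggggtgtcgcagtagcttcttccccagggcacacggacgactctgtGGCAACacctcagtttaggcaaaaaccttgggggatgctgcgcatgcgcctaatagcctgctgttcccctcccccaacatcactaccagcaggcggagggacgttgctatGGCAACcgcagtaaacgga
The match lay 72 to 67 bases before the start site in Mns1, 51 to 46 before it in Dynlrb2 and 19 to 14 before it in Lrriq1. Cfap44 held 2 matches. Their values in the luminal libraries were 18, 19, 525 and 748 for Mns1, 0, 0, 125 and 192 for Dynlrb2, 22, 38, 694 and 1053 for Lrriq1 and 25, 67, 575 and 955 for Cfap44, with the CD1 libraries first in each.

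Dmbt1, a secreted scavenger-receptor protein of mucosal surfaces, had the largest increase of any gene called. It stood at 43 and 60 in CD1 and at 26146 and 55841 in DNp63, a difference of 9.28 ± 0.74 (limma adjusted p = 0.000622). It took up 0.131% and 0.279% of the DNp63 luminal libraries. Both DNp63 libraries were far above both CD1 libraries, and the call was robust. In the basal gate the values were 28 and 16 in CD1 and 342 and 2263 in DNp63 (4.95, limma adjusted p = 0.0314). Of the 22 tested mucosal defence genes Dmbt1 was the only one that rose, beside 2.62% higher among all genes.

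3 other mucosal defence genes fell, beside 1.75% lower among all genes, and they were robust. Chil1, a chitinase-like secreted protein, went from 19172 and 8591 to 1679 and 971 (-3.38 ± 0.39, limma adjusted p = 0.00279). Cp, which encodes the copper-carrying ferroxidase ceruloplasmin, went from 14010 and 10317 to 3877 and 3072 (-1.86 ± 0.17, limma adjusted p = 0.00126). Lcn2, an iron-siderophore trap, went from 25576 and 25428 to 9469 and 7423 (-1.66 ± 0.20, limma adjusted p = 0.00359). No DNp63 luminal library reached the lower CD1 luminal library for any of the 3, as for every gene that fell.

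Other genes with large increases served varied roles. Slc5a7, the choline transporter of cholinergic cells, had 0 reads in CD1 and 250 in DNp63, at least 74.7-fold higher, and it was called under every alternative that kept both DNp63 luminal libraries. With either left out it did not pass the filter and was not tested. Rbms3, an RNA-binding protein, went from 408 and 608 to 4280 and 6597 (3.34 ± 0.23, limma adjusted p = 0.000371). DNp63 luminal replicate 1 was below the CD1 basal libraries (5064 and 4951) and replicate 2 was above them. Padi3, a protein-citrullinating enzyme of hair follicles, went from 8 and 19 to 470 and 783. Il33, an epithelial alarmin cytokine, went from 153 and 1253 to 15003 and 7642 (4.51 ± 0.94). Its CD1 libraries lay far apart, and Il33 lost its call when either DNp63 luminal library (limma adjusted p = 0.174 and 0.128) or CD1 luminal replicate 1 (0.0585) was left out. Aldh1a3, a retinoic-acid-forming enzyme of luminal progenitors, rose by 1.35 (limma adjusted p = 0.0251), and lost its call without either DNp63 luminal library (0.163 and 0.123) or CD1 luminal replicate 1 (0.0765). Among called genes the largest gains in mean value were those of Dmbt1, Krt19 and Agps, an enzyme of ether lipid synthesis (8191 and 7128 against 15852 and 25421).

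Milk protein genes fell. Of 12 tested, 9 fell and none rose, with a median of -2.19, beside a share of 1.75% lower among all genes. Their summed value was 200994 and 226522 in CD1 luminal and 34643 and 46635 in DNp63 luminal, 1% and 1.13% of the library against 0.173% and 0.233%. Csn1s2a, an alpha-casein, went from 14772 and 10721 to 28 and 24 (-8.58 ± 0.23, limma adjusted p = 1.49e-06). Csn2, beta-casein, went from 22750 and 20234 to 73 and 423 (-6.90 ± 0.76, limma adjusted p = 0.00246). Csn1s1, another alpha-casein, went from 31653 and 32470 to 825 and 2172 (-4.63 ± 0.51, limma adjusted p = 0.00248). For each of these 3 caseins the lower CD1 library was more than 10-fold above the higher DNp63 library. Lalba, the lactose synthase subunit, differed by -4.12. Spp1, the phosphoprotein osteopontin, stood at 26749 and 44135 against 173 and 2411, a difference of -5.76 ± 0.97 that was -3.89 without DNp63 luminal replicate 1 and -7.61 without replicate 2. It was not called with the luminal libraries alone (limma adjusted p = 0.0706). Csn3, kappa-casein, fell by 1.44 and Ltf, the iron-binding lactoferrin, by 2.01, but Csn3 lost its call without DNp63 luminal replicate 1 (limma adjusted p = 0.0731) and Ltf without either DNp63 luminal library (0.157 and 0.155) or CD1 luminal replicate 1 (0.0684). Wap, whey acidic protein, did not exceed 38 in any luminal library and was not tested. The count of 9 became 5 without DNp63 luminal replicate 1. Csn1s2a, Csn2, Csn1s1 and Lalba were robust.

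The promoters of caseins are shown because STAT5, the effector of prolactin, binds the motif TTCNNNGAA, which reads the same on both strands. The motif lay in 2 of 10 windows of tested milk protein genes (20%), against 5.91% of windows of all genes tested, 7.08% of those of genes that fell and 5.13% of those of genes that rose. The 2 windows that hold it are shown with the match in capitals.
Csn2, chr5:87699426-87699675, minus strand: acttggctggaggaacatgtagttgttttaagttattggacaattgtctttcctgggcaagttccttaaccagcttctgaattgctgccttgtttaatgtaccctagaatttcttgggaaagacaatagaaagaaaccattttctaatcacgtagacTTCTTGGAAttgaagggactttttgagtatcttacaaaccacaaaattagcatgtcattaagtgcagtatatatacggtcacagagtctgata
Csn1s1, chr5:87665958-87666207, plus strand: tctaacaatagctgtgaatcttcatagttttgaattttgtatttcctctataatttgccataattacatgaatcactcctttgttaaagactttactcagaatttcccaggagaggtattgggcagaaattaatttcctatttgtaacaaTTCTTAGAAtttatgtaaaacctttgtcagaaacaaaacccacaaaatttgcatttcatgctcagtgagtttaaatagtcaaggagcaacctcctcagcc
The matches lay 93 to 85 bases before the Csn2 start site and 100 to 92 before that of Csn1s1.

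Regulators and feedback genes of alveolar differentiation moved in both directions or were not called. Elf5, the ETS factor of alveolar cells, stood at 3415 and 3731 in CD1 and at 2518 and 3588 in DNp63 (-0.31 ± 0.23, limma adjusted p = 0.577). Of 18 tested genes of this list 3 fell and 1 rose, beside 1.75% lower and 2.62% higher among all genes. Socs2 and Cish, feedback inhibitors that STAT5 induces, fell by 1.30 and 0.67, and Tnfrsf11a, the receptor RANK, fell by 0.71. Jak2, the kinase of the prolactin receptor, rose by 0.55. Prlr, that receptor, named after its values were seen, was not called (0.05, limma adjusted p = 0.925). Without DNp63 luminal replicate 1 the 3 became 1, and without replicate 2 they became 0.

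Genes of the hormone-sensing luminal cells were not called: limma and voom called 0 of 14 tested, 1 had an unadjusted p below 0.05, and the median was -0.05. Esr1, the oestrogen receptor, stood at 7283 and 9073 against 10066 and 7262 (0.01 ± 0.19), and Pgr, the progesterone receptor, at 7642 and 6328 against 5590 and 11770 (0.16 ± 0.31). The ranges of the 2 groups overlapped for both. In the list of 23 luminal genes in general 8.7% were called, beside 4.37% of all genes. Among 23 luminal genes in general, Krt19, a simple keratin, rose by 0.59 and Muc1, an apical mucin, fell by 1.59 but lost its call without either DNp63 luminal library (limma adjusted p = 0.0973 and 0.136). Of 13 luminal progenitor genes 2 fell and 1 rose, beside 1.75% lower and 2.62% higher among all genes. Itgb3, the integrin subunit CD61, went from 1344 and 1271 to 342 and 310 (-2.04 ± 0.22, limma adjusted p = 0.00246), and Lbp, a lipopolysaccharide-binding protein, from 1174 and 1516 to 236 and 380 (-2.18 ± 0.26, limma adjusted p = 0.00333). Both were robust. Kit, a receptor that marks progenitors and was named after its values were seen, stood at 7510 and 7009 against 5970 and 5955 and was not called (limma adjusted p = 0.453).

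**Figure D3:**
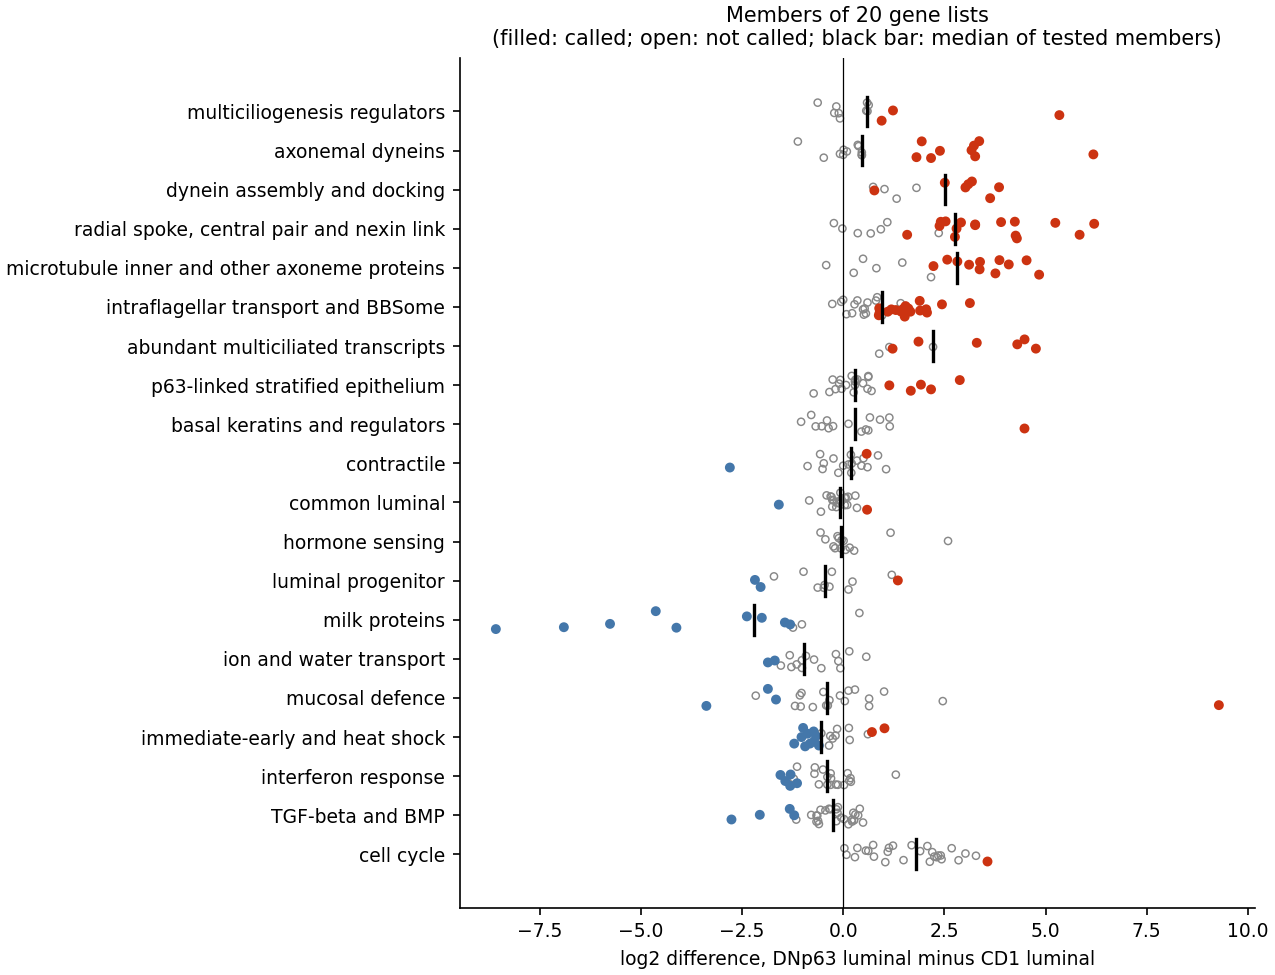
Log2 difference of each tested member of 20 gene lists (1 point per gene, filled where called, black bars at the medians). The 7 cilium lists at the top hold called genes only to the right of 0, milk proteins only to the left, and all 28 cell cycle genes lie to the right although 1 is called.

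Several transporters fell. Of 256 solute carriers tested 11 fell, beside 1.75% of all genes, and 1, Slc5a7, rose, beside 2.62%. In both directions 4.69% were called, near the 4.37% of all genes. Slc38a11, an amino acid transporter, had 148 reads in CD1 and 0 in DNp63, at least 55-fold lower. Slc16a12, a monocarboxylate carrier, went from 408 and 323 to 59 and 47 (-2.66 ± 0.27, limma adjusted p = 0.00189) and was robust. Slc12a2, the sodium-potassium-chloride cotransporter NKCC1, went from 82204 and 158832 to 34035 and 40038 (-1.69 ± 0.29, limma adjusted p = 0.0149), but was not called without either DNp63 luminal library (0.095 and 0.0998). Igfbp5, a growth-factor-binding protein of involution, went from 91980 and 141532 to 32936 and 34666 (-1.81 ± 0.29, limma adjusted p = 0.0126), with the same limit (0.0754 and 0.1). Slc12a2 and Igfbp5 had the largest losses in mean value among the genes called. Both Slc12a2 and Igfbp5 were higher in CD1 replicate 2, the library with more fibroblast transcripts, and the part of that in the result was not tested. The 11 became 3 without DNp63 luminal replicate 1, 1 without replicate 2 and 6 without CD1 luminal replicate 2.

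Immediate-early genes, which respond within minutes to stimulation and to tissue dissociation, were lower. Of 21 genes of the immediate-early and heat shock list 10 fell and 2 rose, beside 1.75% and 2.62% of all genes, with a median of -0.54. Fos, an AP-1 subunit, went from 59459 and 53378 to 23875 and 26904 (-1.21 ± 0.13, limma adjusted p = 0.00227) and was robust. Fosb, of the same family, went from 92969 and 110737 to 53312 and 56776, and Jun, its partner, from 48070 and 44584 to 30156 and 28304. Dusp1, a MAP kinase phosphatase, fell by 0.88, and Klf2 and Zfp36, an early transcription factor and an mRNA decay factor, by 1.03 and 0.99. The heat shock gene Hspa1b rose by 1.02, from 3163 and 3886 to 7804 and 7000. The summed value of the list was 421224 and 440936 in CD1 and 292577 and 291588 in DNp63. The 10 became 3 without DNp63 luminal replicate 1, 2 without replicate 2 and 4 in a fit of the luminal libraries alone.

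Most calls among growth factor genes were downward. Shares called were 13.3% for TGF-β and BMP and for ErbB, 7.69% for Wnt and 5% for FGF, beside 4.37% of all genes. Of 30 tested TGF-β and BMP genes 4 fell: Tgfb3, a TGF-β ligand (3224 and 3020 against 1266 and 1550, -1.21 ± 0.14, robust), the ligands Bmp2 and Bmp3 (-2.76 and -1.32) and Id1, a BMP target (-2.06). Of 15 ErbB genes, the inhibitor Errfi1 (13793 and 16170 against 5956 and 4919) and the ligand Hbegf fell by 1.52 and 1.12. Of 20 FGF genes, Fgfr1, a receptor, fell by 0.85. Of 39 Wnt genes, Fzd4 and Lgr6, receptors of Wnt and R-spondin, fell by 1.23 and 0.94, and Kremen1, a receptor of the Wnt inhibitor Dickkopf, rose by 0.67. No Notch gene of 18 was called by limma or voom, and 5 had an unadjusted p below 0.05. The TGF-β and BMP count was 1 without DNp63 luminal replicate 1, 2 without replicate 2 and 7 without CD1 luminal replicate 1. The Wnt count of genes that fell was 1 and 0 without DNp63 luminal replicates 1 and 2, 5 without CD1 luminal replicate 1 and 1 without CD1 luminal replicate 2. The ErbB count was 1 without DNp63 luminal replicate 2 or CD1 luminal replicate 2.

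Of 25 interferon response genes 5 fell, beside 1.75% of all genes: Irf7, an interferon-inducible factor (692 and 797 against 245 and 388), and Ifit1, Ifi44, Oas2 and Mx2, antiviral effectors with differences of -1.43, -1.55, -1.31 and -1.14. The groups did not overlap in any of the 5, as in every gene called. The count was 0 without DNp63 luminal replicate 1 and in a fit of the luminal libraries alone, 2 without replicate 2, and 1 without CD1 luminal replicate 2 or either CD1 basal library. Limma and voom called 0 of 14 antigen presentation genes, and 1 had an unadjusted p below 0.05.

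Of 21 tested basement membrane and hemidesmosome genes 3 fell, beside 1.75% of all genes, and 18 were not called, with 9 positive differences in the list. Fras1, a basement membrane protein of epithelial-mesenchymal junctions, went from 348 and 249 to 53 and 55 (-2.34 ± 0.20, limma adjusted p = 0.000805). Lamb3 and Lama3, chains of laminin-332, fell by 1.20 and 0.84. Fras1 and Lamb3 were robust. These proteins are usually products of basal cells, and the CD1 basal minus CD1 luminal differences of Fras1 and Lamb3 were 2.34 and 1.68, which share the CD1 luminal libraries. Moxd1, a monooxygenase-like protein, went the same way, from 359 and 349 to 56 and 63 (-2.48 ± 0.14, limma adjusted p = 0.000118), with a CD1 basal minus luminal difference of 2.91.

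Cell cycle genes were higher by their summed value in both DNp63 luminal libraries, and by far the most in replicate 2. All 28 had a positive difference and the median was 1.80, yet only Bub1b, a spindle checkpoint kinase, passed the test (8 and 8 against 109 and 317, 3.56, limma adjusted p = 0.0448), and it lost the call when any 1 of the 4 luminal libraries was left out (limma adjusted p = 0.0749 to 0.295). The summed value of the list was 8291 and 6422 in CD1 luminal, 10368 in DNp63 luminal replicate 1 and 23356 in replicate 2. The same replicate was high in the basal gate, at 23255 against 9600 in DNp63 basal replicate 1. Mki67, a proliferation antigen named after its values were seen, stood at 224 and 452 in CD1 and at 1113 and 5392 in DNp63 (limma adjusted p = 0.0993). Outside the list, the proliferation-linked forkhead gene Foxm1 rose from 54 and 52 to 178 and 294 (1.90 ± 0.39, limma adjusted p = 0.0317). It was not among the robust genes. DNp63 replicate 2 is the library with low Xist.

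**Figure D4:**
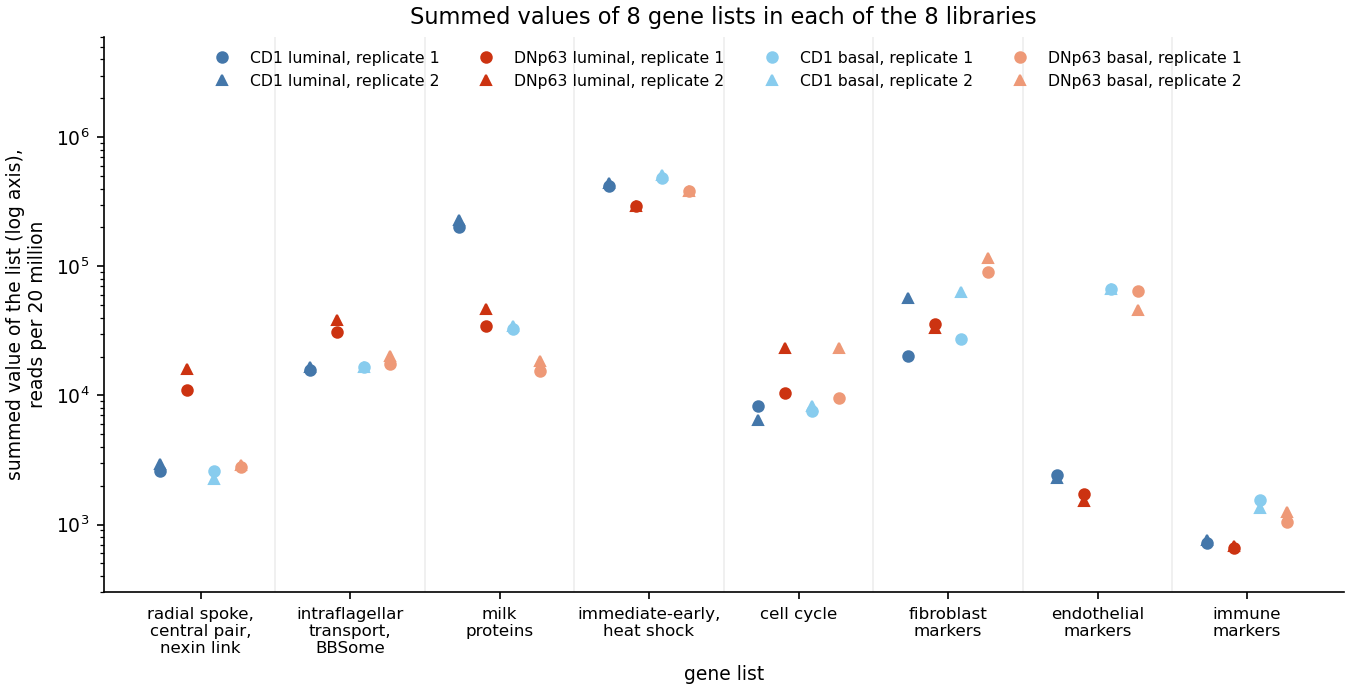
Summed value of 8 gene lists in each library (reads per 20000000, log axis, circles for replicate 1 and triangles for replicate 2). Radial spoke and central pair genes are higher in both DNp63 luminal libraries than in the other 6, cell cycle genes are highest in DNp63 replicate 2 of both gates, and fibroblast markers differ most between the CD1 replicates.

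Fibroblast genes were mixed, with 12.5% of those tested called, beside 4.37% of all genes. Of 16 tested, Dcn, a matrix proteoglycan, fell by 2.07 (6581 and 7887 against 2198 and 1444, limma adjusted p = 0.0374) and Col6a3, a collagen VI chain, rose by 2.14 (937 and 1942 against 5906 and 6550, limma adjusted p = 0.0139). Col1a1, a fibroblast collagen, stood at 692 and 11506 in CD1 and at 4413 and 2614 in DNp63, so the 2 groups overlapped. Dcn lost its call when any 1 luminal library was left out (limma adjusted p = 0.0525 to 0.262) or either DNp63 basal library (0.0805 and 0.0795), and Col6a3 was not called without DNp63 luminal replicate 1 (0.0716) or replicate 2 (0.119). Col6a3 (chromosome 1, 90765923 to 90843971, minus strand) spans Gm36970 (90837275 to 90839133, same strand), which also rose. Whether the 2 rises are separate was not tested. How far fibroblast RNA entered the values of the fibroblast genes was not tested.

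Several changes recurred in the basal gate. Its libraries were others, but same-numbered ones were related: their deviations from the group means correlated across genes at 0.341 between the CD1 gates and at 0.266 between the DNp63 gates, and genes are not independent replicates. There 108 genes were called between DNp63 and CD1 (0.639% of those tested), 35 higher and 73 lower. Of these 39 were also called in the luminal gate, 5.28% of the luminal calls and 36.1% of the basal ones, and 38 changed in the same direction, 18 upward and 20 downward. Krt19 was the exception, with 0.59 in the luminal gate and -0.92 in the basal gate. Milk protein genes fell in both gates, 9 of 12 in the luminal gate and 7 in the basal gate: Csn2 differed by -6.90 and -7.70, and Csn1s2a by -8.58 and -8.10. Other luminal genes were also lower in DNp63 basal, where 0.639% of all genes were called. There 7 of 23 luminal genes in general and 4 of 14 hormone-sensing genes fell, with medians of -0.62 and -1.38. Krt8 differed by -0.93 there (limma adjusted p = 0.0188). How far the amount of luminal RNA entered the basal milk protein values was not tested.

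A group of other genes was near absent in DNp63 libraries of both gates. Zfp990, a zinc finger gene on chromosome 4, stood at 1543 and 2912 in CD1 luminal and at 3 and 0 in DNp63 luminal. That is 1221 reads against 1, a ratio of 1362.4 (95% exact interval 244.1 to 53857.3), and the basal values were 582 and 687 against 17 and 0. Sycp1, a meiotic synaptonemal protein, had 101 reads in CD1 luminal and 0 in DNp63 luminal, at least 37.6-fold lower. The pseudogene Gm4735 went from 639 and 338 to 3 and 20. In the other direction Gm36970, which lies within Col6a3 on the same strand, went from 0 and 4 to 361 and 267. That is a ratio of 177.4 (31.5 to 7043.6). Rpl29 went from 490 and 319 to 3236 and 3819. Rpl26 rose by 1.93 and Rpl21 by 0.95. Ribosomal protein genes have many near-identical pseudogene copies, so their counts are uncertain, and 5 of 79 tested rose (6.33%, beside 2.62% of all genes). That count was 2 without either DNp63 luminal library and 8 without CD1 luminal replicate 1. Rpl29 and Rpl26 differed by similar amounts in both gates: 3.07 and 3.13 for Rpl29, and 1.93 and 1.99 for Rpl26. The mice differ in genetic background, which cannot be told apart from the transgene here.

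The calls were spread over the chromosomes. The share called ranged from 2.41% on chromosome X to 6.85% on chromosome 4 over the autosomes and X, against 4.37% in all. Limma and voom called 0 of the 14 mitochondrial genes tested, and 0 had an unadjusted p below 0.05. Around the Rosa26 locus on chromosome 6, where the cassette sits, 5 of 94 genes tested within 5 megabases on either side were called (5.32%), and 7 of 153 within 10 megabases (4.58%).

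**Figure D5:**
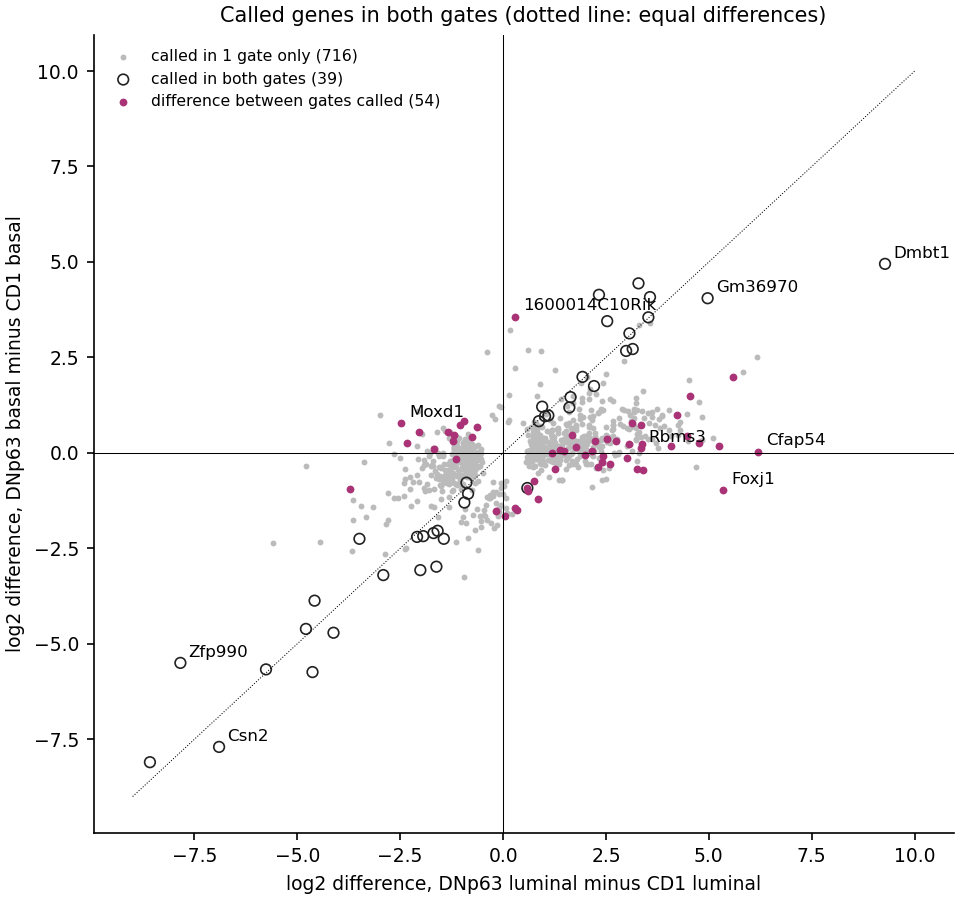
Log2 difference of DNp63 from CD1 in the luminal gate (horizontal axis) and in the basal gate (vertical axis) for genes called in either gate or in the test between gates, with equal differences on the dotted line. Csn2 lies near that line, and Zfp990 is negative in both gates (-7.84 and -5.50). Foxj1 and Cfap54 lie far to the right at a basal difference of -0.98 and 0.03.

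Whether the luminal difference itself differed from the basal one was tested gene by gene. It did in 54 genes (0.32% of those tested), of which 40 were more positive in the luminal gate and 14 more negative, and 47 of them were also called in the luminal comparison. Foxj1 had the largest value, 6.32 (limma adjusted p = 0.000547), followed by Cfap54 (6.17) and Drc7 (5.06). In all 10 cilium-list genes were called, each more positive in the luminal gate. No cilium-list gene was called in the basal comparison by limma or voom, where 18 of 127 had an unadjusted p below 0.05. Of those 18, 3 were lower in DNp63 and the rest higher. The basal medians of the cilium lists ranged from 0.09 to 0.54. Trp63 differed by 4.03 (limma adjusted p = 0.000595), from a basal gate in which it stood at 5457 and 7079 in CD1 and at 8088 and 8306 in DNp63. Moxd1 went in opposite directions: it fell by 2.48 in the luminal gate, and in the basal gate it stood at 2738 and 2703 in CD1 and at 4691 and 4468 in DNp63 (limma adjusted p = 0.0506), an interaction of -3.25. Dmbt1 was not called in this test (4.33, limma adjusted p = 0.152), and neither was Csn2 (0.80, 0.881). The count of 54 was 133 and 106 without CD1 luminal replicates 1 and 2, 7 and 4 without DNp63 luminal replicates 1 and 2, and 4 to 5 without any 1 basal library. The basal count of 108 was 3 and 42 without CD1 basal replicates 1 and 2 and 10 and 19 without DNp63 basal replicates 1 and 2.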

How the data were processed

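RNA was sequenced from sorted luminal and basal mammary cells, 2 libraries in each of 4 groups. The authors aligned reads with STAR and counted them with HTSeq on GRCm38 (mm10), per the submitters' processing notes. Versions, the annotation release and whether strand was used are not given there. The deposited values are a score: reads per gene brought to a common total of 20000000 and rounded up, as the values themselves show, so no count model was the main test. For 99.8% to 99.9% of the values above 0 a whole number of reads was recovered.

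Values were scaled by TMM factors (trims of 30% and 5%), a pseudocount of 8 was added, and log2 values of genes at 40 or more in at least 2 of 8 libraries entered a limma fit (version 3.58.1, R 4.3.3) over all 8 libraries (4 residual and 4.62 prior degrees of freedom). P-values were adjusted by Benjamini-Hochberg over the 16900 genes. The script was tested on simulated data. Fold bounds use a floor of 3 reads over a group, and 95% exact intervals cover counting error only.

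Of the 49671 genes 49412 were found in GENCODE M21, which gave names and coordinates. Promoter windows are from RefSeq (GRCm38.p6). The promoters of Foxj1, Cfap54, Dmbt1, Trp63, Zfp990, Rsph4a and Btn1a1 are not used here.

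The genes compared, the 63 gene lists and the tests were chosen with earlier results of these data known. Genes were named by a rule: 12 markers, up to 6 called members with the largest difference in each list (or 2 members as values), the 20 called genes highest and the 20 lowest among those with a mean of at least 100 in the higher group, the 10 largest gains and 10 largest losses in mean value, the 6 largest differences between gates in each direction, and called genes among the 10 whose DNp63 luminal libraries differ most. Outside it are the cell type markers Epcam, Col1a1, Ptprc, Mcidas, Gmnc, Ccno, Tppp3, Tmem212 and Sec14l3, and also Wap and Ddx3y. Other genes outside it are marked in the text. The 19 alternatives were other scalings, pseudocounts and filters, the luminal libraries alone, voom on recovered reads, a replicate block and each library left out.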

Additional observations from a re-analysis of the deposited data

Results flagged for a closer look

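Among the named genes, 27 had a DNp63 minus CD1 difference that differed between the luminal and the basal gate by limma's interaction test (adjusted p below 0.05). Values are the luminal minus the basal log2 difference.

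The difference was more positive in the luminal gate for Trp63 (4.03) and the p63-linked genes Cdh3 (2.11) and Pkp1 (1.19). It was likewise more positive for Foxj1 (6.32) and the cilium and kinesin genes Cfap54 (6.17), Drc7 (5.06), Pifo (4.49), Kif27 (3.90), Dnah2 (3.68), Mns1 (3.02), Kif26a (2.65), Ift57 (2.53), Ttc26 (2.36) and Kif3a (1.44). Slc5a7 (3.58), Rbms3 (3.21), Krt19 (1.51) and Krt18 (1.36) were also more positive there. Krt18 was not called in the luminal gate (-0.16, limma adjusted p = 0.636) and fell in the basal gate (-1.51, limma adjusted p = 0.0044).

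It was more negative in the luminal gate for 1600014C10Rik (-3.28), Moxd1 (-3.25), Gm13889 (-2.76), Fras1 (-2.60), Itgb3 (-2.58), Cxcr4 (-1.90), Lgr6 (-1.77), Lamb3 (-1.68) and Tgfb3 (-1.51). 1600014C10Rik stood at 139, 156, 239 and 149 in the luminal libraries and at 197 and 212 in CD1 basal against 2019 and 3008 in DNp63 basal.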

How the results depend on the processing

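All 739 called genes kept their sign under every alternative that gave them a value. The 2 groups did not overlap in any of the 739, which largely entails this, so it is no further support. Of the 739, 104 were called under all 19 alternatives and 248 under the 11 that kept all libraries. Without a filter on low values 464 genes were called (294 higher, 170 lower), and with the 4 luminal libraries alone 314 (209 and 105). Leaving out 1 library gave 141 to 973 calls, 83 to 463 higher and 58 to 510 lower. The interaction count of 54 became 117 with a pseudocount of 40, 11 without a filter, 17 with voom, and 4 to 133 with 1 library left out. The basal count of 108 became 55 without a filter, 58 with voom, and 3 to 186 with 1 library left out. With the replicate block 893 genes were called (526 higher, 367 lower), 118 in the interaction and 185 in the basal gate; deviations of same-numbered CD1 and DNp63 luminal libraries correlated at -0.0142, so the numbers do not pair these 2 groups, while across gates of the same mice the correlations were 0.341 and 0.266. The values that changed sign were all of genes not called: Acta2 was -0.10 without CD1 luminal replicate 2, Krt8 0.01 with no scaling factors, Esr1 -0.03 with median of ratios scaling, -0.19 without CD1 luminal replicate 1 and -0.23 without DNp63 luminal replicate 1, and Pgr -0.36 without DNp63 luminal replicate 2. Leaving out the other library of the group moved Acta2 to 0.42 (CD1 luminal replicate 1), Esr1 to 0.26 (DNp63 luminal replicate 2) and Pgr to 0.69 (DNp63 luminal replicate 1). The cause of these changes was not tested. With 1 read worth 2.775 to 3.913 in the luminal libraries, genes near 0 in 1 group have bounds and not folds.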
